A study of Homo sapiens with 8 samples.

Results

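Chromosome 10 of MDA-MB-231 cells carried 2274 of the 48662 regions marked by acetylation of histone H3 at lysine 27 (H3K27ac) in a comparison of cells with and without ARID1A. Its first 10 Mb and its stretch from 50 to 60 Mb differed in opposite directions: regions listed in the knockout alone were the more frequent in the first, and regions listed in the control alone in the second. The regions were selected by taking every peak on chromosome 10 of either genotype and merging peaks that overlapped by at least 1 bp. A region was shared if it held peaks of both lists, and control-only or knockout-only otherwise. Both segments were chosen on these classes, so their class counts are a description and were not tested.

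The cells were of MDA-MB-231, a triple-negative breast cancer line in long use, and the mark had been mapped by sequencing of immunoprecipitated chromatin (ChIP-seq). The 8 libraries formed 4 groups of 2: inputs and immunoprecipitates of control cells, and inputs and immunoprecipitates of ARID1A knockout cells. No other allele, agent or time was labelled, and it was not given whether the knockout was a single clone. Each genotype had 1 peak list, so no value had a spread between replicates and no difference between the genotypes could be tested. The depth of the libraries is unknown. The sample labels named an antibody to H3K27ac, whereas the extraction protocol named one to H3K4me3, so the mark rests on the titles and sample labels.

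H3K27ac lies on nucleosomes beside active promoters and enhancers, where it is written mainly by the acetyltransferases p300 and CBP. ARID1A belongs to the BAF (SWI/SNF) complex, which uses ATP to move nucleosomes and keeps many enhancers open, and ARID1A helps it to bind DNA. A gene start with a peak is usually read as an active or poised promoter, and a peak between genes as a candidate enhancer.

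The promoters of 6 genes of the segments are shown, because they carry the starts listed in 1 genotype alone and a strongly acetylated start of each segment for comparison. Each is 300 bases from RefSeq (GRCh38.p14), 250 before the start and 50 after it, read 5′ to 3′ on the strand of the gene. Capitals mark matches on either strand to the TATA box (TATAAA), the CCAAT box, the GC box (GGGCGG), the AP-1 element (TGACTCA) or the core of the antioxidant response element (TGACNNNGC). AKR1C1 and TUBAL3 had a start peak in the knockout alone, FAM13C and SLC16A9 in the control alone, and KLF6 and DKK1 in both.
AKR1C1: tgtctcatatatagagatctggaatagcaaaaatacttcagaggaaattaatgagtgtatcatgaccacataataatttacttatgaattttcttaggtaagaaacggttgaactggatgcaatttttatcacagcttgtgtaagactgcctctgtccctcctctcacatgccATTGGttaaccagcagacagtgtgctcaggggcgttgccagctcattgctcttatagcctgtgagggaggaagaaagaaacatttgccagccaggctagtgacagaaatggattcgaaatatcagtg
TUBAL3: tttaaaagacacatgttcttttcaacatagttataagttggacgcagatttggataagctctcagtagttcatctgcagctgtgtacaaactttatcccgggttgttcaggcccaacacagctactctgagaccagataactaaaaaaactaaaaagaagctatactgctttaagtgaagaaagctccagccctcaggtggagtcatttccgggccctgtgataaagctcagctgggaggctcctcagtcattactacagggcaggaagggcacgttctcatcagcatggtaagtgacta
FAM13C: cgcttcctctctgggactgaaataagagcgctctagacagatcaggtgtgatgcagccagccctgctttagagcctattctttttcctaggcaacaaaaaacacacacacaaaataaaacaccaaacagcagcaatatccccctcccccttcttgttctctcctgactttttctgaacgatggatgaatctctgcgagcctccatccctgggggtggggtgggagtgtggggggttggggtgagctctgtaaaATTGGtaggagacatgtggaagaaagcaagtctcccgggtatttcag
SLC16A9: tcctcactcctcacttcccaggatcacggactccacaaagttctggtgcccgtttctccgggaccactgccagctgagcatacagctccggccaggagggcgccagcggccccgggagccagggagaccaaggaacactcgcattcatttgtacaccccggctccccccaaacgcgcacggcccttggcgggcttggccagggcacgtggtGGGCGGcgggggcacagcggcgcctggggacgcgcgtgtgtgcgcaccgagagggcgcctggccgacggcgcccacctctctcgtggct
KLF6: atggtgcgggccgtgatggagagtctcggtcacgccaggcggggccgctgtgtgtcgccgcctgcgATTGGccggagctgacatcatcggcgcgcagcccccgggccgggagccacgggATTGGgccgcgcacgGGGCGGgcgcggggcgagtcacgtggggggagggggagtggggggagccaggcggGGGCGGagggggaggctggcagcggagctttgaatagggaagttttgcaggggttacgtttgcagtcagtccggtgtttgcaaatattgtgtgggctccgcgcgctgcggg
DKK1: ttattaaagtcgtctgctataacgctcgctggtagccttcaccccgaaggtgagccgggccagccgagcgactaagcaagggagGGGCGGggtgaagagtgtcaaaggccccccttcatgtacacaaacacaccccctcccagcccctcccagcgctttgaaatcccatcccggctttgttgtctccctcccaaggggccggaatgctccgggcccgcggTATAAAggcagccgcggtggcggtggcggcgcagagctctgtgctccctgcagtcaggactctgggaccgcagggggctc

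These promoters lie at chr10:4963165-4963464 (AKR1C1, plus strand), chr10:5404779-5405078 (TUBAL3, minus), chr10:59362854-59363153 (FAM13C, minus), chr10:59710030-59710329 (SLC16A9, minus), chr10:3785160-3785459 (KLF6, minus) and chr10:52314031-52314330 (DKK1, plus). The shared regions at KLF6 and DKK1 covered all 300 bases, and the knockout-only region at TUBAL3 covered 278 of them. The peaks assigned to AKR1C1, FAM13C and SLC16A9 lay within 1 kb of the start but touched 0 of the bases shown. KLF6 and DKK1 had 33 and 20 CpG dinucleotides and a GC content of 70.7% and 63.7%. AKR1C1 and TUBAL3 had 3 and 4 CpG and a GC content of 41% and 44.3%, FAM13C had 5 and 50%, and SLC16A9 had 28 and 69.7%.

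Motif matches were unevenly spread over these promoters. KLF6 held 2 matches each to CCAAT and GGGCGG, and DKK1 held 1 each to TATAAA and GGGCGG. AKR1C1 and FAM13C held 1 CCAAT match each, SLC16A9 1 GGGCGG match, and TUBAL3 none of the 5 motifs. Of 27326 promoters in the RefSeq table, 11.9% held TATAAA, 35.7% CCAAT, 44.6% GGGCGG, 4.92% TGACTCA and 13.6% TGACNNNGC, on either strand and allowing overlaps. On chromosome 10, GGGCGG was present in 70.5% of the 397 promoters with a start peak in both lists and in 36.4% of the 236 with a peak in neither. TATAAA went the other way, at 4.79% and 16.5%, and the median number of CpG was 27 and 8. The letters are a description of these windows, not evidence of a bound factor.

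On the chromosome as a whole, most acetylated regions were found in both genotypes. The control list held 1851 peaks on chromosome 10 and the knockout list 1971. They formed 1460 shared regions (64.2%), 354 control-only regions (15.6%, exact 95% binomial interval 14.1% to 17.1%) and 460 knockout-only regions (20.2%, 18.6% to 21.9%). Across chromosomes 1 to 22 and X, 14.7% of regions were control-only and 19.6% knockout-only. The intervals cover counting error only. Chromosome 10 was therefore close to the background in its totals, and the contrast lay within it.

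Few of the regions found in a single list were strong. Strong here means a best peak among the upper 50% of fold enrichments in its list and a distance of over 1 kb to any peak of the other genotype. Chromosome 10 had 12 strong control-only and 42 strong knockout-only regions, against a background of 0.616% and 1.48% of all regions. Pileup, fold enrichment and peak widths are the authors' values. Genotype-only regions were also narrow, with a median width of 686 bp for control-only and 802 bp for knockout-only regions, against 2160 bp for shared ones. At the edge of the rule, the smallest overlap that made a control peak shared was 4 bp, at chr10:17109804-17110069. The nearest miss was a genotype-only region 95 bp from a peak of the other list, at chr10:26480286-26480556, and 15 of the 814 genotype-only regions lay within 1 kb of such a peak.

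In the first 10 Mb, which runs from DIP2C through KLF6 and the AKR1C genes to beyond GATA3, knockout-only regions outnumbered control-only ones. Of 222 regions, 133 were shared, 26 control-only (11.7%, exact interval 7.79% to 16.7%) and 63 knockout-only (28.4%, 22.5% to 34.8%), a difference of 16.7 percentage points. The 168 control peaks there covered 330.0 kb and the 199 knockout peaks 479.1 kb, 1.45 times as much. None of the 26 control-only regions was strong, against 7 of the 63 knockout-only ones. The direction was the same on all chromosomes, with 300 strong among 7155 control-only and 719 among 9526 knockout-only regions. Whether the segment departs from these shares was not tested.

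From 50 to 60 Mb, which holds SGMS1, DKK1, PCDH15, ZWINT, TFAM and CCDC6, the order was turned around. Of 81 regions, 43 were shared, 27 control-only (33.3%, exact interval 23.2% to 44.7%) and 11 knockout-only (13.6%, 6.98% to 23%), a difference of -19.8 points. The 70 control peaks covered 125.0 kb and the 54 knockout peaks 107.8 kb, a ratio of 0.862. Each class had 1 strong region. In the remaining 1971 regions of the chromosome, 301 were control-only and 386 knockout-only, a difference of 4.31 points, and the covered length had a ratio of 1.06.

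The excess of control-only regions did not fill the 50 to 60 Mb segment evenly. Between 55 and 58 Mb, bounds chosen after seeing the counts, 15 of 19 regions were control-only, 4 were shared and 0 were knockout-only. Between 50 and 55 Mb, 8 of 33 were control-only and 4 knockout-only. Between 58 and 60 Mb the order went the other way, with 4 control-only and 7 knockout-only regions of 29. With only peaks of −log10 q of at least 5 the difference in the whole segment was -3.92 points, and with runs of neighbouring regions of 1 class counted once -6.35. The same alternatives gave 33.8 and 14.7 points in the first 10 Mb, and 15.6 and 2.00 in the rest of the chromosome. With the −log10 q cutoff the knockout list kept 75.4% of its chromosome 10 peaks and the control list 65.3%. This cutoff moved the difference toward the knockout in each segment and in the rest, where it was 4.31 points with all peaks. Under both alternatives the 50 to 60 Mb segment remained below the rest. By place, the 50 to 60 Mb segment was made of a control-only core around PCDH15 and ZWINT with flanks of mixed class.

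**Figure D1:**
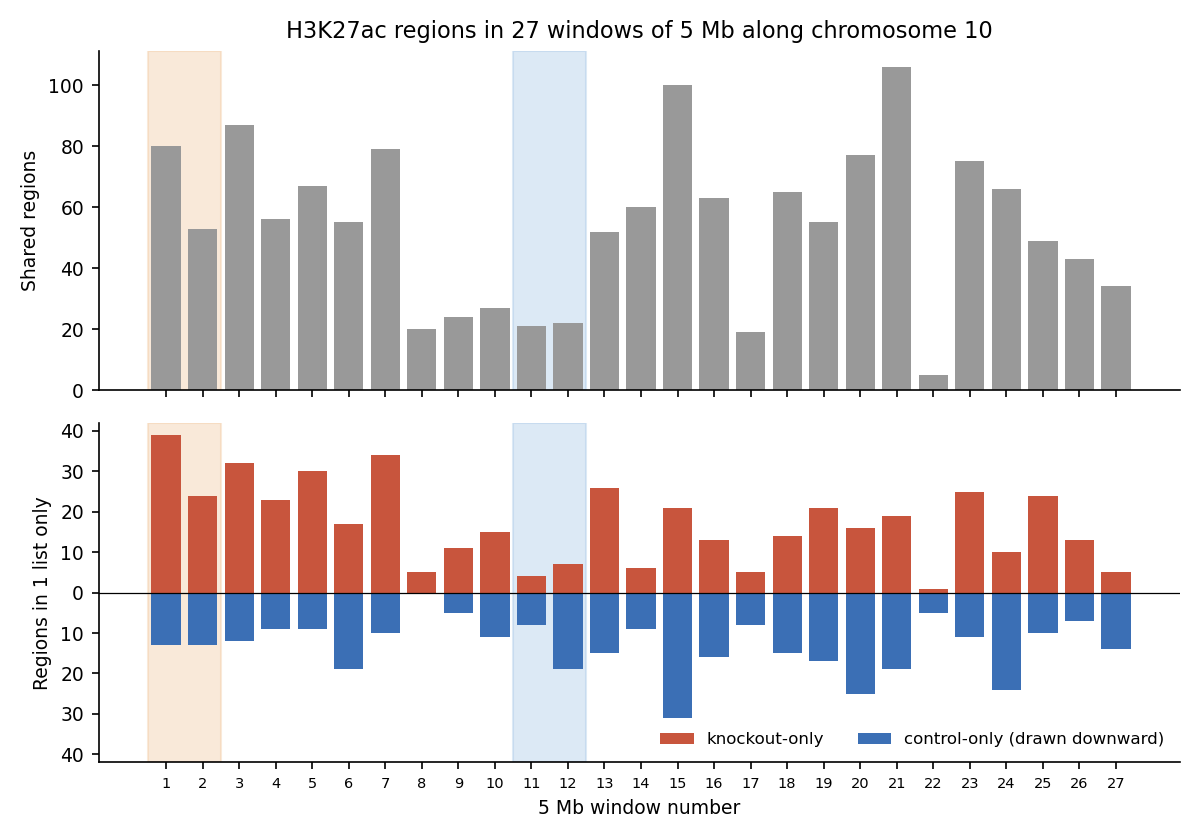
Number of shared regions (upper panel) and of regions in 1 list only (lower panel, knockout-only upward, control-only downward) in the 27 windows of 5 Mb along chromosome 10, numbered from its start. Orange shading marks windows 1 and 2 (0-10 Mb) with 39 and 24 knockout-only regions, blue shading windows 11 and 12 (50-60 Mb) with 8 and 19 control-only regions.

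Read window by window, as in the plot of classes along the chromosome, the first segment was not a patch of its own. Knockout-only regions outnumbered control-only ones in 14 of 27 windows, the reverse held in 12, and 1 window was even. A stretch of 3.96 Mb with no peak in either list, from 38403810 to 42366391, divides the chromosome, a division chosen after seeing the data. Before it, knockout-only regions led in 7 of 8 windows, the exception being 25 to 30 Mb with 19 control-only and 17 knockout-only regions. After it they led in 7 of 19.

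Taken by these sides, 204 of 786 regions before the stretch were knockout-only (26.0%) and 85 control-only (10.8%), whereas after it 256 of 1488 were knockout-only (17.2%) and 269 control-only (18.1%). From 10 Mb up to the stretch the difference was 14.5 points, against 16.7 in the first 10 Mb, from 141 knockout-only and 59 control-only regions of 564. After the stretch, without 50-60 Mb, 242 regions were control-only and 245 knockout-only, a difference of 0.213 points. In these counts, which were not tested, the 50 to 60 Mb segment lay below the total of its own side and the first 10 Mb close to that of its own. Among 300 windows of 10 Mb on all chromosomes with at least 20 regions, 50-60 Mb had the 4th lowest difference and 0-10 Mb the 54th highest. In all, 11 of the 19 windows after the stretch had more control-only than knockout-only regions. Those at 105 to 110 Mb (5 and 1 of 11), 115 to 120 Mb (24 and 10 of 100) and 130 to 135 Mb (14 and 5 of 53) had a difference below the -12.1 points of 50 to 55 Mb.

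In the knockout list alone, the fragment background under the peaks had the order of the class differences across the first 10 Mb, the rest and 50-60 Mb. The approximate background, (pileup + 1) divided by fold enrichment, minus 1, estimates how many input fragments the peak caller expected at a peak, and it is compared only within a list. In the knockout list its median was 6.05 in the first 10 Mb (95% order-statistic interval 5.88 to 6.27, 199 peaks), 3.57 in 50-60 Mb (3.43 to 3.94, 54 peaks) and 4.63 in the rest. Relative to the rest these are 1.30 and 0.769. In the control list the medians were 2.94 (2.77 to 3.14, 168 peaks), 3.11 (2.91 to 3.37, 70 peaks) and 3.23, or 0.911 and 0.965 relative to the rest. The segments were thus far apart in the knockout list and close together, with overlapping intervals, in the control list. From 10 Mb up to the stretch without peaks the knockout median was 6.26 (6.14 to 6.46). That interval overlaps the one of the first 10 Mb, where the class difference was larger.

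The step in the knockout list lay at the stretch without peaks. All 8 windows before it had a median background 1.14 to 1.29 times that of the whole knockout list, and all 19 after it 0.694 to 0.879 times, so that the sides did not overlap. In the control list the corresponding ranges were 0.750 to 0.934 and 0.737 to 1.09, which overlapped. The last 20 knockout peaks before the stretch had a median background of 5.76 and the first 20 after it 3.84. For the control peaks the values were 2.61 and 2.99. Over all peaks the knockout median was 6.21 before the stretch and 4.10 after it, and the control median 3.06 (2.96 to 3.17) and 3.25 (3.20 to 3.30), in the other direction. The part of this level in the counts of knockout-only and control-only regions was not tested.

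**Figure D2:**
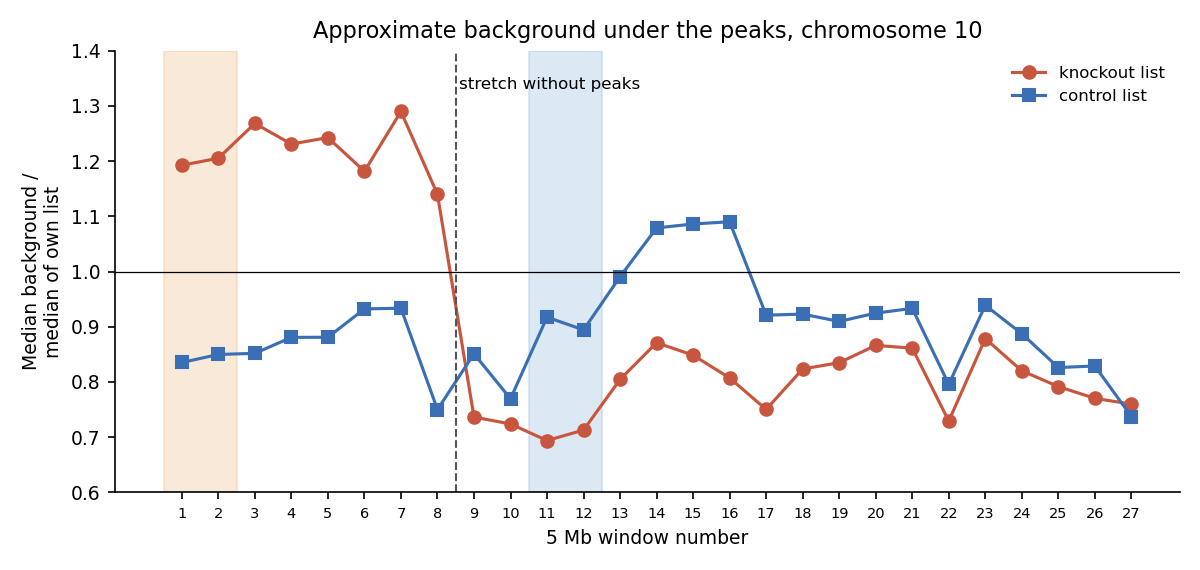
Median approximate background of the peaks of each 5 Mb window, divided by the median of all peaks of the same list (vertical axis), against window number. The knockout list lies at 1.14 to 1.29 in windows 1 to 8 and at 0.694 to 0.879 in windows 9 to 27, with the dashed line between them marking the stretch without peaks, and shading as in the plot of classes.

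Across the 27 windows, the difference in shares and the relative background of the knockout list had a Spearman's rho of 0.62 and a Pearson's r of 0.61, given as a description since neighbouring windows share both libraries. Within the sides the relation was weaker, with a rho of -0.07 and an r of 0.24 in the 8 windows before the stretch, and 0.27 and 0.31 in the 19 after it. Over the 300 windows of all chromosomes rho was 0.01. The control list gave a rho of -0.20 over the 27 windows.

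Pileup, the height of the peaks in fragments, had the same order as the background in the knockout list. Its median there was 37.3 in the first 10 Mb, 22.8 in 50-60 Mb and 31.1 in the rest. In the control list it was 17.3, 16.5 and 20.9, so both segments lay below the rest. Fold enrichment, which divides the background out, was flatter, with medians of 5.51, 5.14 and 5.42 in the knockout list and 4.55, 4.23 and 5.05 in the control list.

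Among shared regions, each of which holds peaks of both lists, the lengths of the peaks differed in the same directions. In 94 of the 133 shared regions of the first 10 Mb (70.7%) the knockout peaks were the longer, with 417 kb covered in all against 316 kb of control peaks. From 50 to 60 Mb this held in 17 of 43 (39.5%), with 96.1 kb against 103.7 kb. Over all chromosomes the share was 50.6%, before the stretch without peaks 68.2% and after it 47.9%. The first 10 Mb thus lay near the level of its own side. The share from 50 to 60 Mb rests on 43 regions, and its difference from its own side was not tested.

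Peak height within shared regions was compared after dividing each pileup by the median of its own list. The relative pileup was higher in the knockout in 118 of 133 shared regions of the first 10 Mb (88.7%, exact interval 82.1% to 93.5%) and in 16 of 43 from 50 to 60 Mb (37.2%, 23% to 53.3%), against 60.7% of 31981 shared regions on all chromosomes. Treated in the same way, fold enrichment was relatively higher in the knockout in 84 of 133 (63.2%) and 22 of 43 (51.2%), against 19178 of 31981 on all chromosomes. By fold enrichment the first 10 Mb therefore lay near the background, and by pileup far above it. The difference in pileup was shared by the whole side before the stretch without peaks, with a higher relative pileup in the knockout in 437 of 497 shared regions (87.9%), against 453 of 963 (47.0%) after it.

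**Figure D3:**
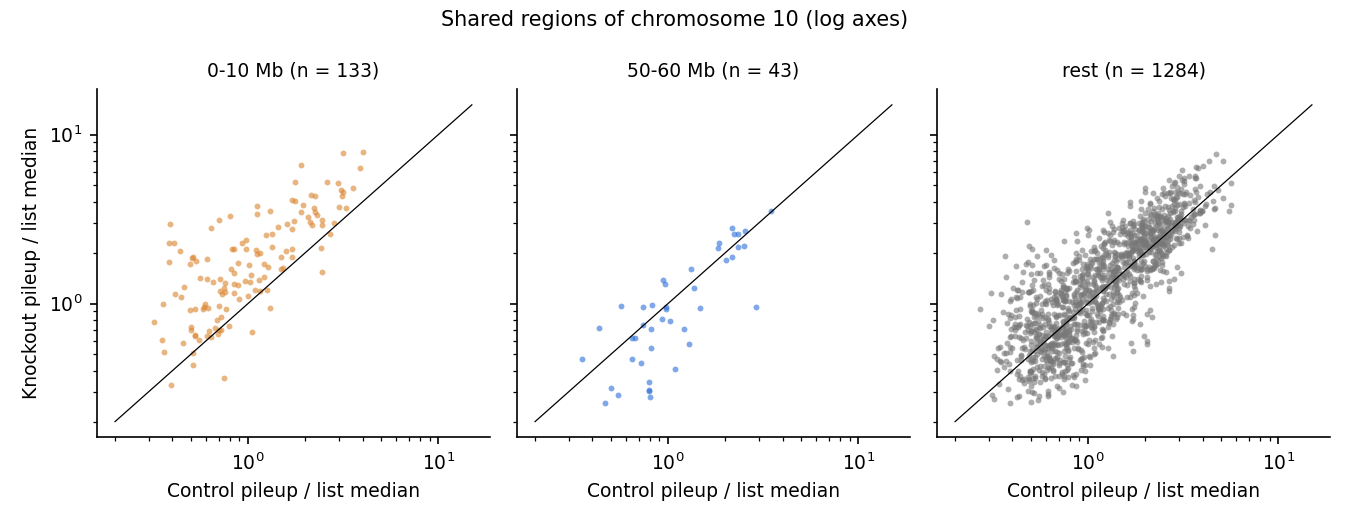
Pileup of each shared region in the control (horizontal) and knockout list (vertical), each divided by the median of its own list, on log axes, for 0-10 Mb, 50-60 Mb and the rest of chromosome 10. Points above the diagonal are relatively higher in the knockout, 118 of 133, 16 of 43 and 756 of 1284 regions.

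At the AKR1C cluster the knockout list held peaks along a stretch where the control list was nearly empty. The cluster encodes aldo-keto reductases, which reduce steroid hormones, prostaglandins and other carbonyl compounds. From 1 kb before AKR1C1 to the end of AKR1C4, 9 regions were found, of which 7 were knockout-only and 2 shared. Knockout peaks covered 16.7 kb and control peaks 2.33 kb. A run of 6 knockout-only regions spanned chr10:4962846-5041931, from the start of AKR1C1 across AKR1C2, and a run of 3 lay after AKR1C4 at chr10:5234437-5272654.

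The strongest region of this cluster in a single list lay 1.14 kb from AKR1C2, at chr10:5019135-5023259, with a fold enrichment of 6.50 and a width of 4125 bp. The peak at the start of AKR1C1 itself, chr10:4962846-4963095, was the weakest, at a fold of 2.64 and a pileup of 8.12. In the body of AKR1C3, the shared region at chr10:5070091-5072978 had a fold of 2.96 in the control and 12.8 in the knockout, so signal in the cluster was not absent from the control. AKR1E2, the neighbouring family member, had a start peak in both lists, at folds of 6.47 and 15.2, and AKR1C2, AKR1C3 and AKR1C4 had no start peak in either. The AKR1C genes are similar in sequence to differing degrees, and how reads that fit several of them were assigned was not given. The place of a peak among the most similar copies is therefore uncertain.

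The run with the most genotype-only regions lay between ADARB2, an RNA-editing enzyme family member, and PFKP, the platelet phosphofructokinase of glycolysis. It held 9 knockout-only regions over 126 kb, chr10:2076998-2203094, all more than 339 kb from ADARB2, the nearest named protein-coding gene. The microRNA hairpin MIR6072 lay just before it, at chr10:2076019-2076089. The highest were at chr10:2100555-2101899 (fold 9.57, pileup 68.0) and chr10:2143446-2146989 (fold 9.14, pileup 64.2). The lowest fold in the run was 2.98.

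Shared regions bounded this run on both sides, and both ranked lower by fold within the control list than within the knockout list. On one side, chr10:2069493-2072597 had a fold of 3.47 in the control and 13.4 in the knockout, percentiles 27.4 and 83.8 of the peaks of each list. On the other lay the widest shared region of the segment, chr10:2204459-2226322, with a knockout peak of 21864 bp against 6957 bp of control peaks in 3 pieces, at folds of 9.15 and 3.99, percentiles 70.5 and 36.4 of their lists. From ADARB2 to PFKP, knockout peaks covered 39.7 kb and control peaks 10.7 kb.

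KLF6, a zinc-finger transcription factor, stood among many shared regions. Its gene lay within a shared region, chr10:3774380-3787483, with a fold of 16.1 and a pileup of 72.1 in the control and 31.1 and 249.5 in the knockout. Between PITRM1 and KLF6, 16 of 28 regions were shared, 2 were control-only and 10 knockout-only. Between KLF6 and AKR1E2, 32 of 40 were shared, 0 control-only and 8 knockout-only.

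The stretch beyond KLF6 held broad shared regions that reached high folds in both lists. The highest was chr10:3802392-3815003, at 21.7 in the control and 30.1 in the knockout. At chr10:4668351-4680380 the knockout peak covered 12030 bp and the control peak 4319 bp, at folds of 26.8 and 12. Knockout peaks covered 137.1 kb between KLF6 and AKR1E2 and control peaks 87.5 kb.

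Outside these loci, knockout-only regions of the first 10 Mb were mostly small. The highest fold, 10.2, belonged to a peak of 291 bp in DIP2C at chr10:455059-455349, whose background of 2.41 was among the lowest in the knockout list. A region of 2.90 kb at chr10:5944019-5946921, 1.98 kb from IL15RA, a receptor chain for interleukin-15, had a fold of 6.53. The control-only regions of the segment reached no more than 4.0, at chr10:2949656-2950520, 117 kb from PFKP. Those in DIP2C (chr10:297057-297664) and in GDI2, a regulator of Rab proteins (chr10:5793926-5794707), had folds of 3.46 and 3.34. A shared region in PFKP, chr10:3086054-3100392, among the 3 widest of the segment, was longer in the control. Its control peak covered 14274 bp and its knockout peak 11402 bp, at folds of 9.48 and 8.67, percentiles 76.7 and 68.4 of their lists.

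The end of the first segment ran against its label by number of regions, though not by length. After GATA3, the luminal transcription factor, 8 of 16 regions were control-only and 2 knockout-only. Knockout peaks covered 17.5 kb there and control peaks 14.6 kb. The control-only regions included a run of 6 over 314 kb, chr10:9515204-9829287, with folds from 2.66 to 3.81. No named protein-coding gene lay nearer to this run than 633 kb, the nearest being CELF2. In gene bodies the classes were mixed as well. LARP4B, an RNA-binding protein gene, held 4 control-only and 1 knockout-only region, PFKP 2 and 0, and DIP2C 2 and 3. PFKFB3, which makes an activator of glycolysis, held 1 and 2.

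In the 50 to 60 Mb segment the control-only regions were strung out over gene-poor chromatin. A run of 5 lay between MBL2, the mannose-binding lectin gene, and PCDH15, at chr10:52939740-53315334. A run of 3 lay in PCDH15, a protocadherin of sensory hair cells, at chr10:55143733-55233469, and another of 5 began in this gene and ended before ZWINT, at chr10:55508899-56240995. A further run of 5 stretched over 1155 kb between ZWINT and IPMK, at chr10:56538312-57692817.

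Each of these regions was modest in height. The highest fold was 5.87, at chr10:55968469-55969860, 341 kb from PCDH15, with a pileup of 19.1. The next were 5.09 at chr10:53029822-53031225, 257 kb from MBL2, and 4.73 at chr10:56621703-56623065, 260 kb from ZWINT. A control-only region outside these runs, chr10:57988946-57990116, 201 kb from IPMK, had a fold of 4.27. Control peaks covered 3.86 kb between MBL2 and PCDH15 and 3.16 kb between PCDH15 and ZWINT, stretches in which the knockout list had no peak. In PCDH15, 4 regions were control-only and 2 shared, with 5.68 kb of control and 1.60 kb of knockout peaks.

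DKK1, which encodes a secreted inhibitor of Wnt signalling, had the widest shared region of this segment. That region, chr10:52308357-52321835, had a fold of 11.4 and 13479 bp of peak in the control and 14.1 and 9335 bp in the knockout. A pair of further shared regions near it ranked higher by fold within the control list than within the knockout list. The shared region at chr10:52482255-52489773, 165 kb from DKK1 and between genes, had a fold of 15.5 in the control and 5.79 in the knockout, percentiles 94.2 and 53.4, with pileups of 66.2 and 30.7. The region 13.3 kb from DKK1, chr10:52330982-52336638, had folds of 8.17 and 4.04, percentiles 69.9 and 36. From 10 kb before DKK1 to MBL2, control peaks covered 32.2 kb and knockout peaks 21.6 kb.

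Of the 11 knockout-only regions of the segment, 4 lay between 50 and 55 Mb, 3 of them in SGMS1, the sphingomyelin synthase gene, and 7 between 58 and 60 Mb. A run of 3 preceded IPMK, an inositol phosphate kinase, at chr10:58143516-58158107, the highest at a fold of 5.47. Others lay in CISD1, which encodes an iron-sulfur protein of the mitochondrial outer membrane (chr10:58273384-58274785, fold 4.93), in BICC1, an RNA-binding protein gene (chr10:58640441-58642368, 4.59), and 38.8 kb from TFAM, the mitochondrial transcription factor (chr10:58438064-58439272, 5.30). From IPMK to BICC1, 13 of 19 regions were shared, 2 control-only and 4 knockout-only, and knockout peaks covered 37.9 kb against 30.4 kb. The shared region that covers the starts of IPMK and CISD1, chr10:58264599-58271641, had folds of 12.4 and 14.3. SGMS1 also held 1 control-only and 8 shared regions.

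**Figure D4:**
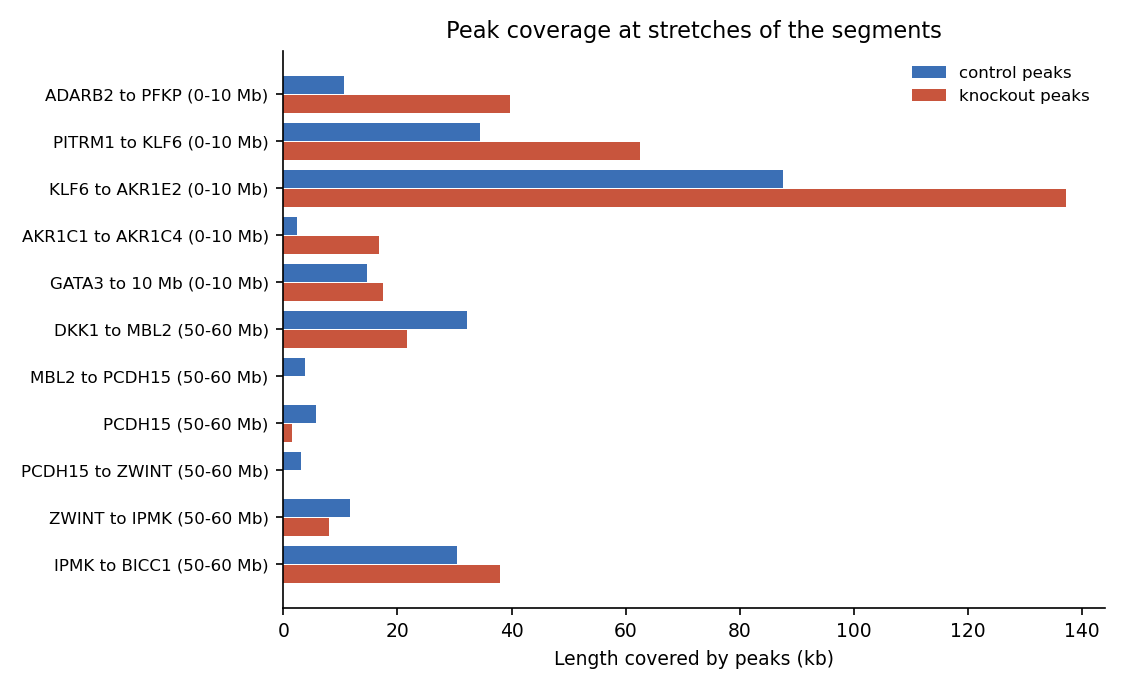
Length covered by control (blue) and knockout peaks (red), in kb, at 11 stretches of the segments named by their flanking genes. Knockout peaks cover more in every stretch shown of 0-10 Mb, control peaks more from DKK1 to IPMK in 50-60 Mb, and knockout peaks more from IPMK to BICC1, where they cover 37.9 kb against 30.4 kb. The stretches are only a part of each segment. With regions assigned to the nearest gene, control peaks cover more at some genes of 0-10 Mb, such as PFKP (31.1 kb against 20.9 kb), DIP2C and GDI2.

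Distance to genes differed between the classes in 50-60 Mb. There, 17 of 27 control-only regions lay more than 100 kb from a named protein-coding gene, against 0 of 11 knockout-only and 8 of 43 shared regions. In the first 10 Mb the shares were closer. So far out lay 27 of 63 knockout-only (42.9%), 9 of 26 control-only (34.6%) and 42 of 133 shared regions (31.6%). On all chromosomes this held for 860 of 7155 control-only, 1716 of 9526 knockout-only and 2632 of 31981 shared regions. Between genes lay 76.2% of the knockout-only, 57.7% of the control-only and 55.6% of the shared regions of the first 10 Mb. In the rest of the chromosome these shares were 34.7%, 30.2% and 26.3%, and on all chromosomes 48.5%, 36.4% and 31.1%. All 3 classes thus had more of their regions between genes in the first 10 Mb. From 50 to 60 Mb the shares were 45.5%, 63.0% and 34.9%. The segments also differed in density, with 4.6 genes and 22.2 regions per Mb in the first, 2.1 and 8.1 in the second, and 5.88 and 17.4 in the rest.

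Most gene starts were acetylated in both genotypes or in neither. A start counted as acetylated if a peak lay within 1 kb of it, with either end of the gene used where no start was given. Of 734 protein-coding genes on chromosome 10, 448 had a peak in both lists, 13 in the control alone, 8 in the knockout alone and 265 in neither. Of 19970 genes on all chromosomes, 1.66% had one in the control alone and 1.47% in the knockout alone. The first 10 Mb had 46 genes, 25 of them with a peak in both lists and 2 in the knockout alone. The 50 to 60 Mb segment had 21, with 11 in both and 2 in the control alone.

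The 4 genes of the segments with a peak in a single list were AKR1C1, TUBAL3, FAM13C and SLC16A9, whose promoters are printed above. Their peaks were low. TUBAL3, a tubulin alpha-like gene, had a knockout peak at chr10:5404623-5405056 with a fold of 2.17. FAM13C had a control peak at chr10:59362145-59362819 with a fold of 2.44, and SLC16A9, of the monocarboxylate transporter family, 1 at chr10:59709490-59709860 with a fold of 4.87. Elsewhere on the chromosome the highest such folds, chosen after their values were seen, were at ABCC2, a drug and bilirubin-conjugate export pump (knockout, 14.2), and at LOC124902461 (control, 7.82). Both peaks belong to shared regions, in which the peak of the other list did not reach within 1 kb of the start.

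Genes with strong start peaks in the segments had them in both lists. In the first 10 Mb, IDI1, an enzyme of isoprenoid synthesis, had folds of 15 in the control and 22.4 in the knockout, RBM17, a splicing factor, 15.1 and 27.1, and PFKP 14.1 and 16.8. In 50-60 Mb, SGMS1 had 21.1 and 25.8, UBE2D1, a ubiquitin-conjugating enzyme, 9.95 and 19.4, and CCDC6, a fusion partner of RET, 11.8 and 19.5. ZWINT, a kinetochore protein, had 7.71 and 11.5 although the chromatin around it held control-only runs. Folds of different lists depend on the depth of each and are not compared.

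The labelled cell type, a triple-negative line, was checked against marker genes on the chromosome. Of 11 mesenchymal and matrix genes on the chromosome, 9 had a start peak in both lists, among them VIM, the intermediate filament vimentin (19.8 in the control, 23.7 in the knockout), ZEB1, a repressor of epithelial genes (15.4 and 22.6), NRP1 (16.6 and 20.7) and PLAU, the urokinase gene (18.6 and 19.7). The other 2 had none in either. The peak counted for ACTA2, another of the 9, is also that at the start of FAS, a member of the cancer gene list. Of all protein-coding genes on the chromosome, 61.0% had a start peak in both lists. Of 5 luminal and epithelial genes only GATA3 had one, at 5.98 and 4.77. None of 8 hepatocyte genes had a start peak, and of 10 neuron genes NEURL1 alone had one, in the control, at 3.56, as part of a shared region. Of 9 lymphocyte and blood cell genes, 3 had a peak in both: IL15RA (20.7 and 22.7), PRKCQ, a T-cell kinase (6.59 and 8.73), and SRGN, a proteoglycan core protein (7.04 and 8.42).

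The remaining lists had most of their start peaks in both genotypes. Of all protein-coding genes, 61.0% on chromosome 10 and 59.9% on all chromosomes had a start peak in both lists. The peak counted for KIN below is also that of ATP5F1C, a member of the housekeeping list. All 12 replication and mitosis genes had start peaks in both lists, with MKI67 at 10.9 and 19.7, BUB3 at 10.2 and 17.7 and KIN at 14.2 and 13.7, as did all 13 housekeeping genes. So did 12 of 13 glycolysis and lipid synthesis genes, 13 of 16 cancer genes, 10 of 12 Wnt and developmental signalling genes and 4 of 5 interferon-induced genes, with none listed in a single genotype. Among the cancer genes were BMI1 (13.2 and 26.4) and MLLT10 (16.6 and 22.5), and among the interferon-induced genes IFIT5 (14.1 and 19.0) and IFIT3 (9.16 and 11.0). The aldo-keto reductase list differed, with 1 of 5 in both and AKR1C1 in the knockout alone.

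Outside the segments, the highest fold of each genotype-only class was above the highest within them, at 12 against 10.2 for knockout-only and 11.3 against 5.87 for control-only regions. The rest held many more such regions, 386 knockout-only and 301 control-only, so a higher maximum there does not set it apart. The knockout-only regions with the highest folds lay in ANXA8, an annexin (12, chr10:47483068-47484192), in CAMK2G, a calcium-dependent kinase (11.0, chr10:73815603-73817677), 7.20 kb from ZNF503 (9.61), in KCNMA1, a potassium channel (9.15), and in ADAM12, a metalloprotease (8.83). ANXA8 has a near-identical copy, ANXA8L1, so its peaks are uncertain. The control-only regions with the highest folds lay at ZNF503, a zinc-finger gene (11.3, chr10:75357710-75360509), in PYROXD2 (7.80), PLAC9 (6.12) and VTI1A (5.76), and 9.27 kb from KCNK18 (5.80). ZNF503 thus had a strong region of each class close by. The widest shared regions were at BAG3, a co-chaperone (32.6 kb, folds 9.05 and 14.4), MYOF, myoferlin (26.4 kb, 13.6 and 16.2), and DNAJB12 (26.1 kb, 15.1 and 17.2).

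Of 60 microRNA hairpins that the RefSeq table places on chromosome 10, 4 lay in shared regions, MIR1915, MIR4683, MIR4482 and MIR2110. None lay in a genotype-only region, and none of the 7 in the segments lay in a region of any class. Control peaks covered 4075 kb and knockout peaks 4409 kb of a chromosome whose last peak ended at 133.5 Mb. With so little of it covered, few hairpins would lie in a region, and these counts are a description only.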

How the data were processed

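Each genotype had 1 peak list, called on its immunoprecipitate against its input. The submitters' processing notes name Bowtie2 (2.3.5.1), MACS2 (2.2.6) and the build hg38. Settings, read filters and pooling of replicates are not given in the sources used here. The deposited columns hold, per the file headers, the pileup of each peak (a coverage signal), its fold enrichment over input (a ratio), and its −log10 p-value and −log10 q-value.

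Peaks of chromosomes 1 to 22 and X (39797 control, 42552 knockout) were merged with Python 3.11.15, and the merging was tested on simulated data and checked with bedtools 2.31.1. A region belongs to the segment or 5 Mb window that holds its midpoint. Levels were set only within a list, since depth and scaling differ between lists. Intervals of medians are order-statistic intervals and those of shares are Clopper-Pearson, at 95%. Both cover counting error only.

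The members and gene lists were chosen with earlier results of these data known. Named were, per segment and in the rest, the 5 control-only and 5 knockout-only regions of highest fold, the 3 widest shared regions, genes with a start peak in 1 list, up to 4 members per gene list and the 3 genes with most genotype-only regions. The runs, the bounding and longest shared regions and further start peaks were added after their values were seen. Gene positions came from RefSeq (GRCh38.p14), with a start for 650 of 734 genes.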

Additional observations from a re-analysis of the deposited data

How the results depend on the processing

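With 1 list per genotype there was no test of genotype, no replicate to leave out and no spread between replicates. No paired analysis was possible because the lists carry no replicate columns. Depth is unknown, so an absent peak is only a peak not called. Of 108 values under alternatives of 23 results, 74 stayed the same, 33 moved and 1 reversed.

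Requiring 50% reciprocal overlap gave 664 control-only and 784 knockout-only regions on chromosome 10. A −log10 q of at least 5 left 130 control-only regions, and 30000 peaks per list left 267 knockout-only ones. The share difference (knockout-only minus control-only) in 0-10 Mb became 11.5 points with reciprocal overlap, 33.8 with −log10 q of at least 5, 20.6 with 30000 peaks, 9.10 by length and 14.7 with runs counted once. In 50-60 Mb it became -3.92 with −log10 q of at least 5, -60 in 52-58 Mb, -6.56 by length and -6.35 with runs counted once, so that its size depends on these settings. In the rest it became 4.61 with reciprocal overlap, 15.6 with −log10 q of at least 5, 0.497 with 30000 peaks, 2.72 by length, 2.00 with runs counted once, 14.5 before and 0.213 after the stretch without peaks. Each of these kept its sign. Counting runs once and dividing the rest were chosen after seeing the data.

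Relative background of the knockout list in 0-10 Mb was 1.19 against other chromosomes and 1.47 against chromosome 10 after the stretch. In 50-60 Mb it was 0.704, 0.700 (52-58 Mb) and 0.866 in turn. The control list had 0.840 in 0-10 Mb against other chromosomes, and 0.889 and 0.845 (52-58 Mb) in 50-60 Mb, where peaks of shared regions gave 1.01, the single reversal. Relative pileup of the knockout list in 52-58 Mb was 0.581. With −log10 q of at least 5, start peaks in the control alone fell to 8 on chromosome 10 and 1 in 50-60 Mb. Those in the knockout alone came to 14 on chromosome 10 and 1 in 0-10 Mb.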
